A study of Homo sapiens with 6 samples.

Results

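The circadian clock genes PER1, PER2, PER3, CRY1, CRY2, ARNTL, CLOCK, NR1D1, NR1D2 and DBP were examined in HaCaT cells whose libraries are labelled si-YTHDF2, set against libraries labelled NC. They were chosen by name, as the core transcription loop of the clock and its best-known output factor, and are 10 of the 16551 genes with counts in the deposited table. All 10 passed the low-count filter that left 12264 genes for testing. The si-YTHDF2 group and the NC group held 3 libraries each. HaCaT is an established line of immortalised human keratinocytes, and both groups were grown from it per the labels. The label si-YTHDF2 is the usual notation for a small interfering RNA against YTHDF2, a reader protein of N6-methyladenosine (m6A) that shortens the life of the mRNAs it binds, and the series design calls the NC group si-NC. Neither the siRNA sequence nor the time after transfection is given in the labels, and nothing there says whether cells were synchronised or at which hour they were taken. Clock phase was therefore not measured, and each library is 1 time point. Separate cultures are not stated for the replicates, so the spread behind each p-value is that between libraries and may be technical.

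The mammalian clock is a feedback loop of transcription. The CLOCK and ARNTL proteins (ARNTL is also called BMAL1) form a heterodimer that binds E-boxes and activates the PER and CRY genes, NR1D1, NR1D2 and DBP. The PER and CRY proteins then repress that heterodimer, and the nuclear receptors NR1D1 and NR1D2 repress ARNTL through elements they share with the activating ROR receptors. DBP carries the rhythm to other genes through D-boxes. Keratinocytes hold such a clock, and in skin it is known to time cell division and differentiation.

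The promoters of the genes on which the results turn are shown because these motifs link the loop's members to each other. Each is the RefSeq window of 300 bases on GRCh38.p14, from 250 bases before the annotated start to 50 after it, read 5′ to 3′ on the gene's strand. RefSeq held a window for all 10 genes. Capitals mark a match to an E-box, an E-prime box, a D-box or a ROR element core. The order is CRY1 (chr12:107093500-107093799, minus strand), ARNTL (chr11:13277540-13277839, plus strand), PER2 (chr2:238288561-238288860, minus strand), NR1D1 (chr17:40100540-40100839, minus strand) and DBP (chr19:48637330-48637629, minus strand).
CRY1: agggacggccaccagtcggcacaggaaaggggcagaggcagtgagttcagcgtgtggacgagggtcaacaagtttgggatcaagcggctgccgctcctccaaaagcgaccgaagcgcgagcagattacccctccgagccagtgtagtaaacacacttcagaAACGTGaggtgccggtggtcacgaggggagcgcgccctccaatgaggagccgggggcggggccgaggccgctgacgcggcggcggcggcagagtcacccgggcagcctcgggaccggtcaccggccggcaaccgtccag
ARNTL: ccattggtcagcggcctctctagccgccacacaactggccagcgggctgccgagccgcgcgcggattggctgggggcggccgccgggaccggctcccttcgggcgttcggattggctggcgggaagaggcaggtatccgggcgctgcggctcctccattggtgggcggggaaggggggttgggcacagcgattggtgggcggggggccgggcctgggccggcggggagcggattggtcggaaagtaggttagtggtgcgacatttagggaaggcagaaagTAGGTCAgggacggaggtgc
PER2: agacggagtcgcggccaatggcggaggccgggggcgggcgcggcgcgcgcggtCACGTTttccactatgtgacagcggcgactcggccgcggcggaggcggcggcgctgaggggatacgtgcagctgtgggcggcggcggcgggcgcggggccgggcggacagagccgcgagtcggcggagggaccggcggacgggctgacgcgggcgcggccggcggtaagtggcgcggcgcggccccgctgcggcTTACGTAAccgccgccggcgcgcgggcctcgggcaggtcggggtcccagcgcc
NR1D1: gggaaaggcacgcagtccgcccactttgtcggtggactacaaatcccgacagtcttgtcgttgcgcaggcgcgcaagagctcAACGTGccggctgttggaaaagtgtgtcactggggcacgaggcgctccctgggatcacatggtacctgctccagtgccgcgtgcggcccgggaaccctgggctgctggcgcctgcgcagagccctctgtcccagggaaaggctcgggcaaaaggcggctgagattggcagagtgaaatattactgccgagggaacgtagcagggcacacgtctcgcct
DBP: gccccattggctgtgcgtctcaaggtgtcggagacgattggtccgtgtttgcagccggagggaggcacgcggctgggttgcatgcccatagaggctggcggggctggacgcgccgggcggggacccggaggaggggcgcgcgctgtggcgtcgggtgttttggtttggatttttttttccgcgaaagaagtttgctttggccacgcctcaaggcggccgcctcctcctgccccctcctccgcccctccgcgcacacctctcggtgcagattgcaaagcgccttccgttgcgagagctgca

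Motifs were searched on both strands in all 10 windows. The E-box CACGTG was found in 1 of them, PER1, from base -173 to base -168, where -1 is the base before the start and the start itself is 1. It was present in 7.26% of the 35116 RefSeq promoters of this length. The E-prime box CACGTT was found in 3 windows, at -197 to -192 in PER2 and, on the other strand as AACGTG, at -89 to -84 in CRY1 and at -168 to -163 in NR1D1, against 5.34% of all promoters. The D-box, searched as TTATGTAA and TTACGTAA, was found at -177 to -170 in PER3 and across the start, from -3 to 5, in PER2, and 1.01% of all promoters held it. A ROR element core (TAGGTCA or TGGGTCA) lay at 31 to 37 in ARNTL and was present in 5.69% of all promoters. The cyclic AMP response element TGACGTCA was found in none of the 10 windows and in 1.85% of all promoters. Its core TGACG, not capitalised, was found in PER2, CRY1, CRY2, CLOCK and NR1D2, and 24.6% of all promoters held it. No matches shared a base, and the DBP window held no match to any of these letters. A match describes letters in a window and was not tested as a binding site. For several of the genes GENCODE annotates a start further upstream, so other promoters exist that are not shown.

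**Figure D1:**
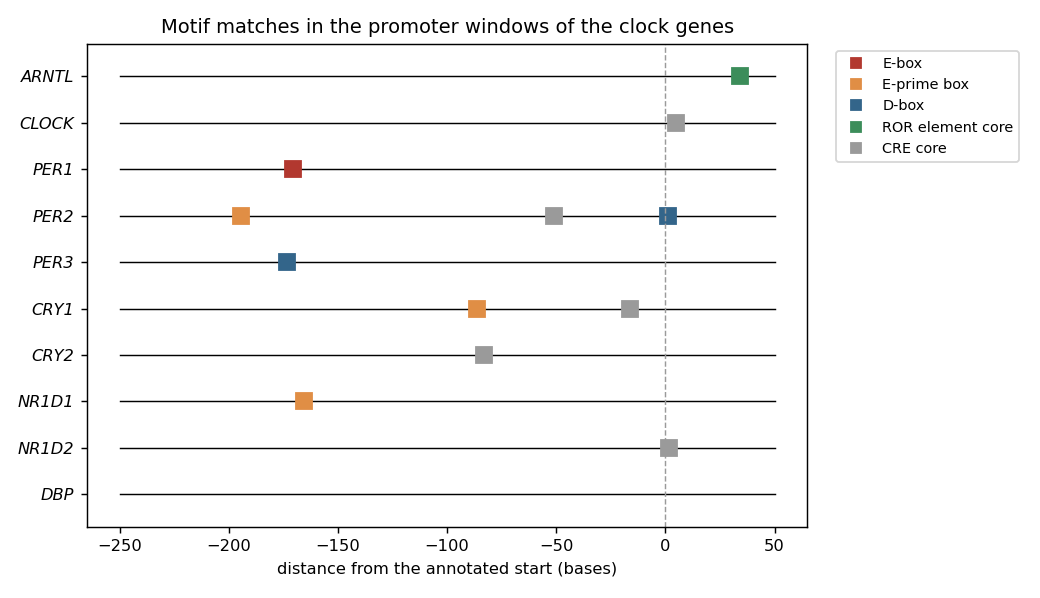
Motif matches in the promoter windows of the 10 clock genes. The horizontal axis is the distance from the RefSeq start in bases and each square is a match on either strand, coloured by motif, with the cyclic AMP response element core in grey. The matches in PER1, PER3, NR1D1 and the PER2 E-prime box lie more than 150 bases before the start, the PER2 D-box spans the start, and the DBP line is empty.

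The 6 libraries held 19803707 to 22698069 counts. YTHDF2, the targeted gene, had counts of 958, 1048 and 870 in si-YTHDF2 and 1631, 1526 and 1855 in NC. Its mean level in si-YTHDF2 was 57.1% of that in NC, and the exact permutation test (two-sided) had p = 0.1, the lowest value open to 3 libraries against 3. The test used for the other genes, the quasi-likelihood test of edgeR, gave YTHDF2 a log2 fold change of -0.81 (adjusted p = 4.13e-07). Within groups, chi-square per gene between libraries ran from 3.77 to 14.1, more than sampling noise gives, so none is a repeat of another. Replicate 1 of si-YTHDF2 was the least like the rest of its group, at 12.7 and 14.1 against the other two, and values that rest on it are given with and without it. Marker genes of some other cell types also moved. The summed level of 10 erythroid and platelet markers was 1550 to 1781 CPM (counts scaled to a common library size) in si-YTHDF2 and 55.9 to 58.5 CPM in NC. All 10 were higher in si-YTHDF2. HBB alone averaged 1412 CPM in si-YTHDF2 and 46.6 CPM in NC, and without HBB the sum averaged 234 CPM in si-YTHDF2. The erythroid gene AHSP was near the floor, with 4, 2 and 0 counts in si-YTHDF2 and 0 in every NC library. The sum of 10 leukocyte markers was 14.6 to 17.2 CPM in si-YTHDF2 and 3.84 to 4.88 CPM in NC, with 9 of 10 higher in si-YTHDF2. Among them NKG7 was near the floor, with 0, 2 and 1 counts in si-YTHDF2 and 0 in every NC library. The sum of 7 fibroblast and endothelial markers overlapped, at 82.6 to 89.7 CPM in si-YTHDF2 and 63.2 to 108 CPM in NC. Of these 7, 4 were higher in si-YTHDF2 and 1 was called. The part of these cell types in the results was not tested. Of the keratinocyte markers KRT5 was abundant, at 2384 CPM in si-YTHDF2 and 2029 CPM in NC. Its usual partner KRT14 had only 38 to 48 counts in si-YTHDF2 and 12 to 98 in NC. Of 9 keratinocyte markers, 2 were called higher and 3 lower, KRT15 by the most, at 264 CPM in si-YTHDF2 and 865 CPM in NC. The sum of 9 keratinocyte markers was 4050 to 4468 CPM in si-YTHDF2 and 4385 to 4603 CPM in NC. Of these 9, 4 were higher in si-YTHDF2. The sum of 6 simple and mucosal epithelial keratins was 6606 to 7390 CPM in si-YTHDF2 and 16295 to 16918 CPM in NC. All 6 were lower in si-YTHDF2, but by very different amounts. KRT13 had 1941 CPM in si-YTHDF2 and 9391 CPM in NC, and KRT4 had 8.53 CPM in si-YTHDF2 and 500 CPM in NC. KRT7, KRT8, KRT18 and KRT19 stood at 69.8% to 83.5% of their NC levels.

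Within the loop, the activator gene ARNTL and the repressor gene CRY1 rose in si-YTHDF2, and DBP, PER2, NR1D1 and CRY2 fell. CLOCK rose slightly. Changes were below 2-fold in every case, the largest being DBP at 0.560 of its NC level and CRY1 at 1.68 times its NC level. PER1, PER3 and NR1D2 did not pass the test. In bulk RNA a smaller number of cells of a type and less RNA per cell cannot be told apart.

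ARNTL (ENSG00000133794, chromosome 11, 13276652 to 13387266, plus strand, GRCh38) encodes the partner of CLOCK and is the gene whose loss stops the clock in mice. Its level was 14.2, 12.4 and 13.8 CPM in si-YTHDF2 against 9.97, 7.87 and 9.22 CPM in NC. Every si-YTHDF2 library lay above every NC library. The mean was 13.5 ± 0.953 CPM in si-YTHDF2 and 9.02 ± 1.06 CPM in NC (SD, n = 3 each), so the log2 fold change (log2FC) was 0.58, with a standard error (SE) of 0.12 (adjusted p = 0.00142, from the quasi-likelihood test of edgeR with the Benjamini-Hochberg method over all genes tested). CLOCK (ENSG00000134852, chromosome 4, 55427903 to 55547138, minus strand), which encodes the other subunit of the heterodimer, had 64.3, 57.9 and 56.7 CPM in si-YTHDF2 against 54.3, 49.7 and 52.6 CPM in NC. The groups did not overlap, but the gap was narrow. CLOCK had a log2FC of 0.19 (SE 0.07; edgeR, adjusted p = 0.0278). CLOCK did not pass without NC replicate 2 (0.16; edgeR, adjusted p = 0.128) and without NC replicate 3 (0.19; edgeR, adjusted p = 0.0702). Over the 15 alternatives tried its adjusted p ran from 3.72e-04 to 0.128.

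The period genes, whose proteins enter the repressor complex, were lower or not separable. PER2 (ENSG00000132326, chromosome 2, 238244038 to 238290102, minus strand) had 24.1, 27.4 and 27.1 CPM in si-YTHDF2 against 32.2, 34.3 and 35.2 CPM in NC, with no overlap. Its mean was 26.2 ± 1.79 CPM in si-YTHDF2 and 33.9 ± 1.52 CPM in NC (SD, n = 3 each), and it fell by 0.37 on the log2 scale (SE 0.08; edgeR, adjusted p = 0.00158). PER1 (ENSG00000179094, chromosome 17, 8140472 to 8156506, minus strand) is the period gene that responds most quickly to acute signals. PER1 had 25.9, 28.1 and 26.7 CPM in si-YTHDF2 against 28.3, 27.5 and 31.4 CPM in NC, and the groups overlapped. The 95% interval of its log2FC ran from -0.29 to 0.06 around -0.11 (edgeR, adjusted p = 0.262). PER3 (ENSG00000049246, chromosome 1, 7784320 to 7845177, plus strand), the lowest of the period genes, had 12.2, 10.2 and 10.5 CPM in si-YTHDF2 against 12.2, 11.8 and 12.6 CPM in NC. Its si-YTHDF2 replicate 1 lay inside the NC range and the other 2 libraries below it. The log2FC was -0.16 with a 95% interval from -0.40 to 0.09 (edgeR, adjusted p = 0.265), and -0.24 without si-YTHDF2 replicate 1 (edgeR, adjusted p = 0.1002). Under the alternatives that adjusted p ran from 0.1002 to 0.537.

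The cryptochrome genes, whose proteins are the loop's direct repressors, moved in opposite directions. CRY1 (ENSG00000008405, chromosome 12, 106991364 to 107093829, minus strand) had 21.6, 19.9 and 19.2 CPM in si-YTHDF2 against 12.3, 10.9 and 13.0 CPM in NC. The lowest si-YTHDF2 library was well above the highest NC library. CRY1 averaged 20.2 ± 1.23 CPM in si-YTHDF2 and 12.0 ± 1.09 CPM in NC (SD, n = 3 each), a log2FC of 0.75 (SE 0.10; edgeR, adjusted p = 3.91e-05). CRY2 (ENSG00000121671, chromosome 11, 45847118 to 45883248, plus strand) had 17.9, 17.3 and 19.0 CPM in si-YTHDF2 against 22.6, 20.8 and 22.1 CPM in NC, again with no overlap. CRY2 fell by 0.28 on the log2 scale (SE 0.09; edgeR, adjusted p = 0.0155). The CRY2 call did not hold without si-YTHDF2 replicate 2 (-0.24; edgeR, adjusted p = 0.0613), without NC replicate 1 (-0.25; edgeR, adjusted p = 0.0627) or with library totals in place of composition factors (-0.21; edgeR, adjusted p = 0.0552). Its adjusted p ran from 0.00242 to 0.0627 over the alternatives.

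Of the nuclear receptors, known as REV-ERB alpha and beta, NR1D1 fell and NR1D2 varied within the si-YTHDF2 group. NR1D1 (ENSG00000126368, chromosome 17, 40092787 to 40100725, minus strand) had 14.5, 22.7 and 22.6 CPM in si-YTHDF2 against 26.3, 27.8 and 29.3 CPM in NC. All 3 si-YTHDF2 libraries were below NC, and replicate 1 was the lowest by a wide margin. NR1D1 had a log2FC of -0.48 (SE 0.14; edgeR, adjusted p = 0.00931), and of -0.29 without si-YTHDF2 replicate 1 (edgeR, adjusted p = 0.00938). Over the alternatives its adjusted p ran from 0.00108 to 0.0326. NR1D2 (ENSG00000174738, chromosome 3, 23945260 to 23980618, plus strand) had 72.8, 57.4 and 54.9 CPM in si-YTHDF2 against 69.0, 69.8 and 71.0 CPM in NC. Here replicate 1 was the highest of all 6 libraries, while replicates 2 and 3 were the lowest. With all libraries its log2FC was -0.18, with a 95% interval from -0.37 to 0.01 (edgeR, adjusted p = 0.103). Without replicate 1 it was -0.31 and passed the test (edgeR, adjusted p = 1.42e-04), and it also passed after correction for length and GC content (-0.14; edgeR, adjusted p = 0.0492), with adjusted p from 1.42e-04 to 0.346 over the alternatives. Thus the library that stood apart held the lowest NR1D1 level and the highest NR1D2 level of the series.

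DBP (ENSG00000105516, chromosome 19, 48630030 to 48637438, minus strand) encodes the D-box activator whose transcript swings widely over the day in most tissues. It had 23.8, 26.4 and 27.0 CPM in si-YTHDF2 against 45.4, 46.8 and 45.7 CPM in NC. The libraries of each group lay close together and far from the other group. The mean was 25.7 ± 1.68 CPM in si-YTHDF2 and 46.0 ± 0.716 CPM in NC (SD, n = 3 each). DBP fell by 0.84 on the log2 scale (SE 0.07; edgeR, adjusted p = 6.74e-07), and under the 15 alternatives its log2FC ran from -0.90 to -0.77, each time called.

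**Figure D2:**
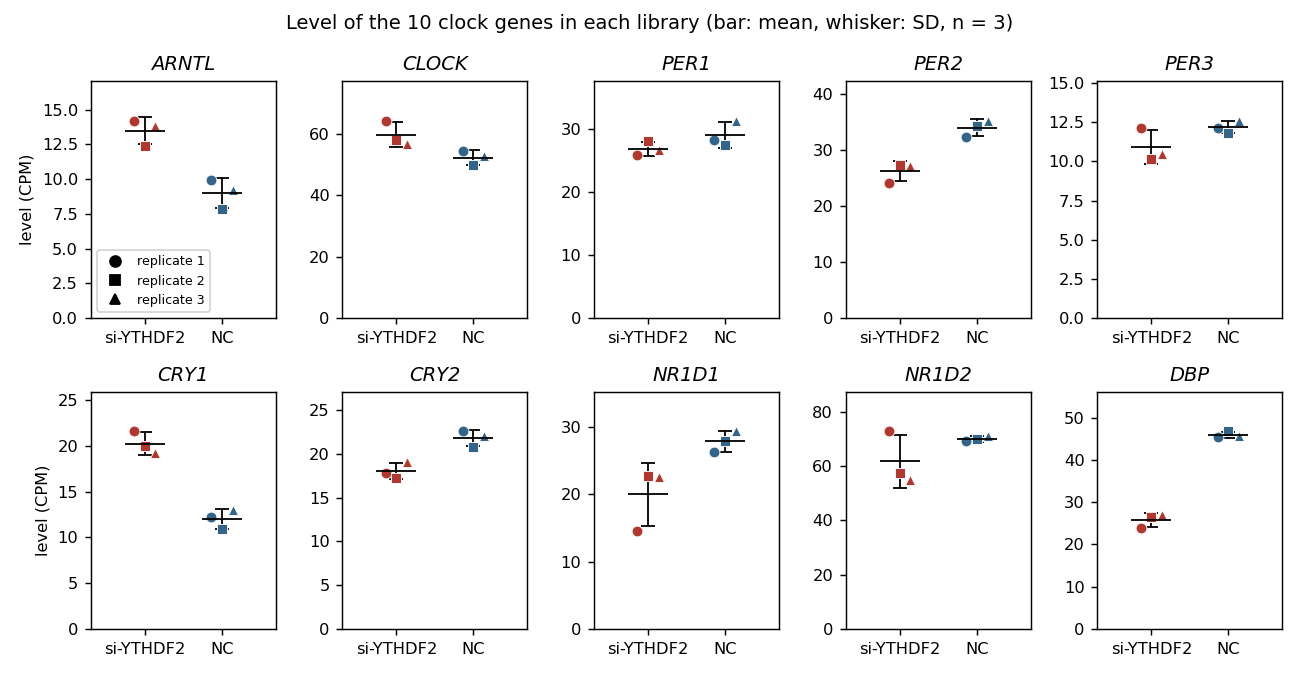
Level of each clock gene in every library, in CPM on linear axes that start at 0. Symbols are libraries (circle, square and triangle for replicates 1, 2 and 3), the horizontal bar is the mean and the whisker the SD (n = 3). DBP, at 25.7 CPM in si-YTHDF2 and 46.0 CPM in NC, shows the widest gap for its spread, and in NR1D1 and NR1D2 the si-YTHDF2 replicate 1 stands off from the other two.

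Counted together, 3 of the 10 clock genes were called higher and 4 lower in si-YTHDF2. Of all 12264 genes tested, 51.2% were called in either direction, 26.1% higher and 25.2% lower, against 70% of the clock genes. With 10 genes this share is not far from the background. The groups did not overlap in 7 of the 10, against 58.5% of all genes. The median log2FC was -0.17 over the clock genes and 0.01 over all genes tested, and the median size of the change, without sign, was 0.32 and 0.26. Without si-YTHDF2 replicate 1 the counts were 3 higher and 5 lower, and at an adjusted p under 0.01 they were 2 higher and 3 lower.

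**Figure D3:**
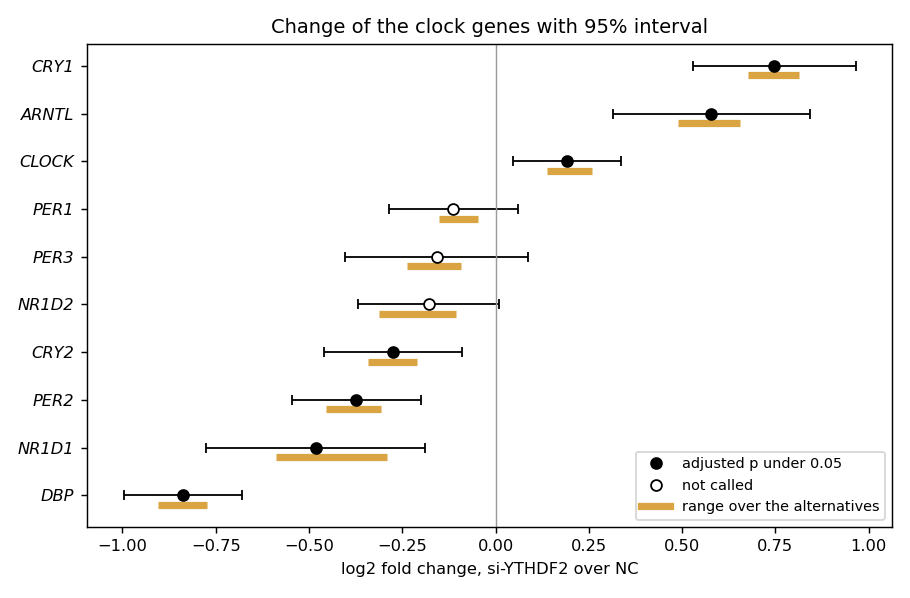
Log2 fold change of each clock gene, si-YTHDF2 over NC, with its 95% interval. Filled points had an adjusted p under 0.05, and the ochre bar is the range over the 15 alternatives. CRY1 (0.75) and ARNTL (0.58) lie to the right and DBP (-0.84) to the left with intervals clear of 0, and the intervals of PER1, PER3 and NR1D2 cross 0.

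Ratios of counts within a library do not depend on how libraries are scaled. The following 6 pairs were chosen after the values had been seen. Per CRY2 count there were 1.21, 1.16 and 1.01 CRY1 counts in si-YTHDF2 and 0.543, 0.523 and 0.589 in NC. CRY1 reads thus outnumbered CRY2 reads in all 3 si-YTHDF2 libraries and were fewer in all 3 NC libraries. The log2 ratio was higher by 1.02 in si-YTHDF2. ARNTL counts per DBP count were 0.597, 0.470 and 0.513 in si-YTHDF2 and 0.220, 0.168 and 0.202 in NC, and this log2 ratio of the activator to its output gene was higher by 1.42 in si-YTHDF2. ARNTL relative to CLOCK was higher by 0.39 and PER1 relative to PER2 by 0.26, both without overlap. For each of these 4 pairs the exact permutation test (two-sided) had p = 0.1, the smallest possible, and 0.15 after Benjamini-Hochberg adjustment over the 6 pairs. The pairs were picked from these same values, so the p-values add no support to the changes of the single genes. PER3 relative to PER2 (exact p = 0.2) and NR1D1 relative to NR1D2 (exact p = 0.6) overlapped between the groups. The NR1D1 to NR1D2 count ratio was 0.200, 0.397 and 0.411 in si-YTHDF2 and 0.381, 0.399 and 0.413 in NC, so si-YTHDF2 replicate 1 alone lay apart.

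Levels were compared between genes as CPM per kilobase of the longest annotated transcript. In si-YTHDF2, NR1D2 was highest at 11.7 CPM per kb, followed by NR1D1 (7.20), CLOCK (5.79), PER1 (5.71), CRY1 (5.28), DBP (4.47), CRY2 (4.29), PER2 (4.10), ARNTL (3.49) and PER3 (1.73). Libraries overlapped between neighbours from NR1D1 down to CRY1 and from DBP down to PER2, so the order within those runs is not resolved. In NC the order was NR1D2 (13.3), NR1D1 (10.04), DBP (7.99), PER1 (6.18), PER2 (5.31), CRY2 (5.19), CLOCK (5.07), CRY1 (3.14), ARNTL (2.34) and PER3 (1.93), and neighbours overlapped from PER2 down to CLOCK. PER3 was the lowest and NR1D2 the highest of the 10 in both groups by this length, and CRY1 had rank 5 in si-YTHDF2 and rank 8 in NC. The place of DBP depends on its transcript. With the longest transcript that GENCODE pairs with a RefSeq mRNA, 2229 bases instead of 5756, DBP was 11.5 CPM per kb in si-YTHDF2, second to NR1D2 with overlapping ranges, and 20.6 CPM per kb in NC, where it was the highest.

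Some counts may include reads of other genes, because the use of strand in counting is not given in the sources used here. Exons of NR1D1 share 263 bases, 9.49% of their length, with the antisense gene THRA, a thyroid hormone receptor. THRA had 30.6 CPM in si-YTHDF2 and 34.3 CPM in NC, a log2FC of -0.16 (edgeR, adjusted p = 0.108), and was called without NC replicate 1 (adjusted p = 0.0429) and after correction for length and GC content (adjusted p = 0.0170), its highest value over the alternatives being 0.312. DBP shares 661 exonic bases (10.1%) with antisense SPHK2, and PER3 shares 868 (10.7%) with antisense UTS2. The part of SPHK2 and UTS2 reads in the DBP and PER3 counts was not tested. Shared exons of PER1, PER2, CRY1 and CLOCK with their neighbours came to at most 188 bases per neighbouring gene. No such overlap was found for ARNTL, CRY2 or NR1D2.

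The called genes also differed in base composition. The longest transcripts of the 3 that rose had a GC content of 37.2% (CRY1), 37.2% (CLOCK) and 43.0% (ARNTL). Those of the 4 that fell ran from 52.4% (PER2) to 59.5% (NR1D1). The size of this difference depends on the transcript. With the transcript paired with RefSeq, GC content was 47.7% for CRY1, 45.4% for ARNTL and 65.5% for DBP. It was unchanged for CLOCK, PER2, CRY2 and NR1D1. Over all genes tested the trend was small and ran the other way, with a median log2FC of -0.07 in the quartile of lowest GC and 0.06 in the quartile of highest GC. After removal of a trend with length and GC content from each library, an alternative chosen after seeing the data, CRY1 was at 0.80, ARNTL at 0.59, CLOCK at 0.26, CRY2 at -0.34, PER2 at -0.46, NR1D1 at -0.52 and DBP at -0.90, all called. The part of composition in these results was not otherwise tested.

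**Figure D4:**
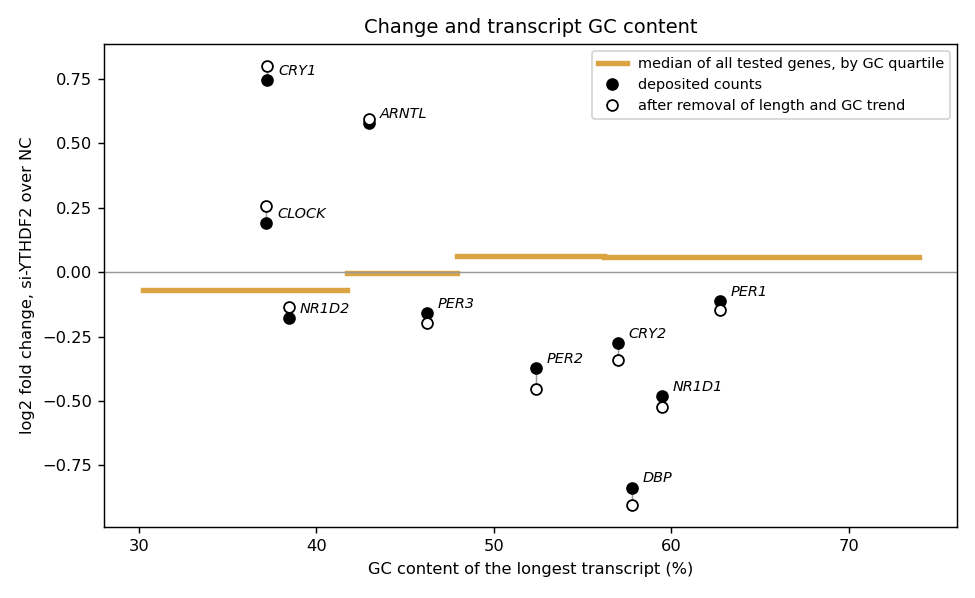
Log2 fold change, si-YTHDF2 over NC, against the GC content of the longest transcript for the 10 clock genes. Filled points are from the deposited counts, open points are after correction for length and GC content, and ochre bars are the median of all tested genes in each quartile of GC content. The clock genes below 45% GC include the 3 that rose and NR1D2, the all-gene bars stay between -0.07 and 0.06, and the open points of CRY1 (0.80) and DBP (-0.90) lie further from 0 than the filled ones.

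YTHDF2 binds methylated adenosines, most often in a GGACU context, written GGACT in the annotation. Counts of these letters are not methylation, which was not measured here. The longest transcripts held 2.26 GGACT per kb in DBP, 2.14 in CRY2, 2.12 in PER1 and 1.88 in PER2, and at most 0.78 in the other 6, against a median of 0.92 over all genes tested (quartiles 0.58 and 1.36). The transcript paired with RefSeq gave 0.45 per kb for DBP and 1.79 for ARNTL, so the order depends on the transcript. By the longest transcript, DBP, CRY2 and PER2 fell and PER1 was not called among the 4 genes with the higher values. Among the 6 with the lower values CRY1, ARNTL and CLOCK rose, NR1D1 fell, and PER3 and NR1D2 were not called.

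For the 2 genes with the smallest p in each direction, the 3 genes of most similar pattern were found among 12263 others by the root mean square difference of centred log2 CPM over the 6 libraries. For CRY1 they were SPIRE1 (0.0474), PCLAF (0.0542) and C3orf52 (0.0557). ARNTL lay nearest to PCBD2 (0.0422), KATNAL1 (0.0476) and RNF165 (0.0487). DBP was matched more closely, by IFITM3 (0.0166), DTX4 (0.0244) and DDIT4 (0.0254), and PER2 by PLCB3 (0.0139), IER5 (0.0241) and SPR (0.0247). None of these 12 is a gene of the clock lists.

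Beyond the 10 genes, other transcription factors of the clock were taken from general knowledge. Of 11, 7 passed the low-count filter, of which 3 were higher, 1 lower and 3 not called. That is 57.1% called, near the 51.2% of all genes tested. NPAS2, which can stand in for CLOCK as the partner of ARNTL, was low in both groups but clearly separated, with 80, 86 and 91 counts in si-YTHDF2 against 36, 22 and 33 in NC. Its mean was 4.03 ± 0.482 CPM in si-YTHDF2 and 1.42 ± 0.272 CPM in NC (SD, n = 3 each), 2.84-fold higher (log2FC 1.50, SE 0.25; edgeR, adjusted p = 2.02e-04). BHLHE40, which competes for E-boxes as a repressor, had 219, 243 and 244 CPM in si-YTHDF2 against 158, 167 and 166 CPM in NC. It rose by 0.52 on the log2 scale (edgeR, adjusted p = 4.30e-06). TEF, a D-box activator of the DBP family, fell by 0.31 (29.4 ± 2.32 CPM in si-YTHDF2 and 36.4 ± 1.79 CPM in NC, SD, n = 3 each; edgeR, adjusted p = 0.00603). NFIL3, the D-box repressor, had 13.9 ± 1.01 CPM in si-YTHDF2 and 11.2 ± 1.45 CPM in NC (SD, n = 3 each), a log2FC of 0.31 (edgeR, adjusted p = 0.0457). The NFIL3 call was lost under DESeq2 (adjusted p = 0.0869), when every gene was kept (adjusted p = 0.0570), and without si-YTHDF2 replicate 1 (adjusted p = 0.0861), si-YTHDF2 replicate 3 (adjusted p = 0.127), NC replicate 2 (adjusted p = 0.159) or NC replicate 3 (adjusted p = 0.140), with a lowest value of 0.0154 over the alternatives.

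The 3 tested factors that were not called are named here after their values were seen. ARNTL2, the paralog of ARNTL, had a log2FC of 0.18 (edgeR, adjusted p = 0.0735), and its adjusted p was under 0.05 with library totals (0.0283), with the replicate number as a block (0.0318) and after correction for length and GC content (0.00761), and at most 0.307 over the alternatives. BHLHE41, the paralog of BHLHE40, was at 33.7 CPM in si-YTHDF2 and 33.2 CPM in NC (edgeR, adjusted p = 0.852). RORA, an activator of ARNTL, had counts of 114, 90 and 69 in si-YTHDF2 against 12, 45 and 129 in NC, and NC replicate 3 held the highest count of all. RORA had a log2FC of 0.55 (edgeR, adjusted p = 0.384), and of 1.597 without NC replicate 3 (edgeR, adjusted p = 0.00816), and its highest adjusted p over the alternatives was 0.904. Below the filter, RORB had 3 to 4 counts in si-YTHDF2 and 5 to 8 in NC, HLF had 0 to 3 in si-YTHDF2 and 0 to 5 in NC, and CIART had 1 to 6 in si-YTHDF2 and 1 to 2 in NC.

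Genes for the kinases, ubiquitin ligases and cofactors that set the stability and activity of clock proteins changed by small amounts. Of 24 listed, 21 were tested, with 5 higher, 9 lower and 7 not called. The share called was 66.7%, beside 51.2% of all genes tested, and the median log2FC was -0.09. PRKAA2 lay below the filter, at 0 to 1 counts in si-YTHDF2 and 0 to 5 in NC, and CSNK2B and FBXL21 were not analysed here. The casein kinase genes for PER phosphorylation divided. CSNK1E was higher, at 29.5 ± 2.18 CPM in si-YTHDF2 and 19.9 ± 0.547 CPM in NC (SD, n = 3 each; log2FC 0.57; edgeR, adjusted p = 7.37e-05), whereas CSNK1D fell by 0.24 (126 CPM in si-YTHDF2 and 149 CPM in NC; edgeR, adjusted p = 0.00105). NONO, an RNA-binding partner of the PER complex, fell by 0.38 (637 CPM in si-YTHDF2 and 829 CPM in NC; edgeR, adjusted p = 9.79e-06), and WDR5, also found in that complex, rose by 0.47 (edgeR, adjusted p = 2.29e-05). The corepressor gene NCOR1, through which NR1D1 and NR1D2 act, fell by 0.28 (281 CPM in si-YTHDF2 and 342 CPM in NC; edgeR, adjusted p = 3.54e-04). The number called lower in this list was 4 with library totals, 4 without si-YTHDF2 replicate 2 and 4 without NC replicate 3. CSNK1D was named after its values were seen.

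Known or reported output genes of the clock, some of them also under other controls, moved in both directions. Of 13 tested, 5 were higher, 6 lower and 2 not called, so 84.6% were called beside 51.2% of all genes tested. The median log2FC was -0.02 and the median size without sign 0.62, beside 0.26 over all genes. This list too was chosen with earlier results of these data known, and its difference from other genes was not tested. AQP3, the glycerol channel of keratinocytes, whose rhythm in skin was described in mice, had 14.6, 16.0 and 13.0 CPM in si-YTHDF2 against 106, 105 and 111 CPM in NC. It fell by 2.88 on the log2 scale (SE 0.08; edgeR, adjusted p = 4.80e-12). KLF9, a glucocorticoid-responsive and rhythmic regulator of keratinocyte proliferation, had 2.56, 2.45 and 2.70 CPM in si-YTHDF2 against 14.8, 13.6 and 13.5 CPM in NC, a log2FC of -2.44 (edgeR, adjusted p = 9.33e-09). For both genes the groups were separated by several times their own spread. KLF10, a factor induced by TGF-beta, fell by 1.02 (38.9 CPM in si-YTHDF2 and 78.8 CPM in NC; edgeR, adjusted p = 1.47e-08), and the glucocorticoid target TSC22D3 by 0.82 (edgeR, adjusted p = 3.98e-08). NAMPT, which makes a precursor of NAD, rose by 0.29 (edgeR, adjusted p = 0.00274). WEE1, the mitotic inhibitor kinase, fell by 0.17 (edgeR, adjusted p = 0.0143), a call lost with library totals (adjusted p = 0.117), without NC replicate 1 (adjusted p = 0.0693), without NC replicate 3 (adjusted p = 0.0567) and after correction for length and GC content (adjusted p = 0.0790), with a lowest value of 0.00718. TSC22D3, NAMPT and WEE1 were named after their values were seen.

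Immediate early and CREB-regulated genes were listed because PER1 and PER2 also respond to these acute signals. Of 12 tested, 9 were lower, 1 higher and 2 not called, or 83.3% called beside 51.2% of all genes tested, of which 25.2% were lower. The median log2FC was -1.62 in this list, likewise chosen with earlier results known, and 0.01 over all genes. FOS had 11.7, 10.5 and 11.3 CPM in si-YTHDF2 against 186, 188 and 190 CPM in NC, a log2FC of -4.08 (SE 0.07; edgeR, adjusted p = 2.35e-14). Its relative FOSB fell by 3.13 (8.60 CPM in si-YTHDF2 and 75.4 CPM in NC; edgeR, adjusted p = 8.94e-12). EGR1, a zinc finger factor, fell by 2.25 and BTG2, an antiproliferative gene, by 1.89 (edgeR, adjusted p = 6.80e-12 for each). The orphan receptor gene NR4A1 fell by 0.89 (edgeR, adjusted p = 4.91e-04), SIK1, a kinase induced through CREB, rose by 0.53 (edgeR, adjusted p = 0.00144), and CREM had a log2FC of 0.17 (edgeR, adjusted p = 0.284). These 3 were named after their values were seen. PER1, with a log2FC of -0.11 and a 95% interval from -0.29 to 0.06, was not called. PER2 was called lower, and its log2FC of -0.37 was smaller in size than those of FOS, FOSB, EGR1 and BTG2. Whether acute signals act on the PER genes here was not tested.

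**Figure D5:**
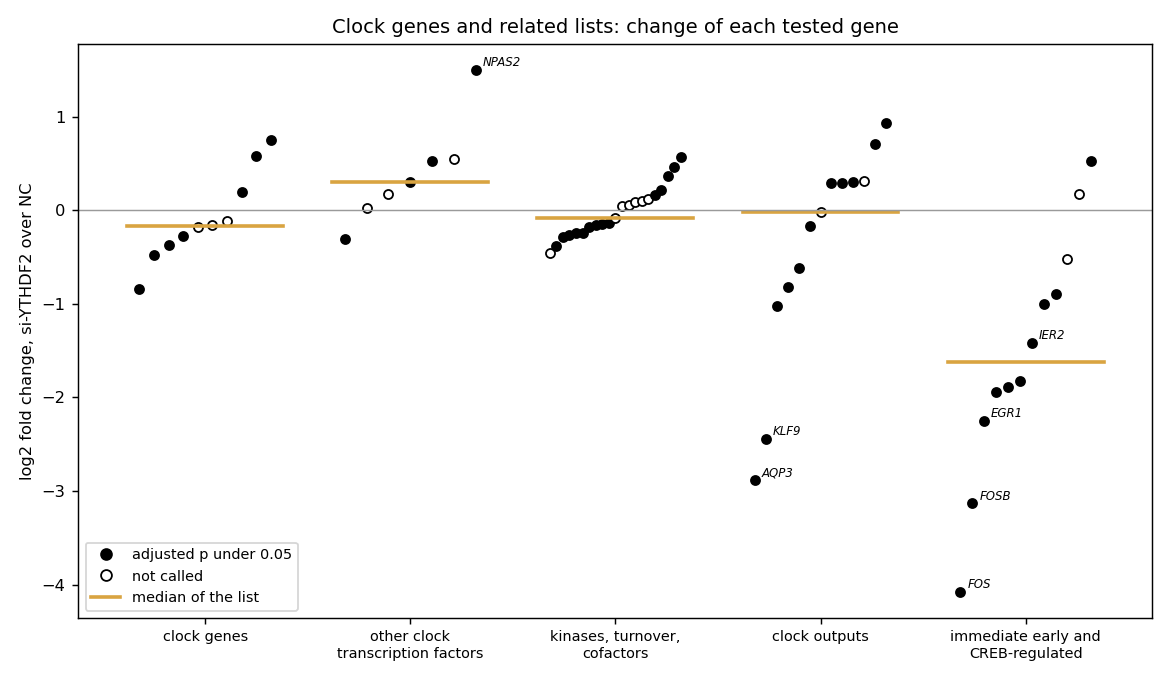
Log2 fold change, si-YTHDF2 over NC, of each tested gene in the clock genes and 4 related lists, sorted within a list. Filled points had an adjusted p under 0.05 and ochre bars are list medians. The 10 clock genes stay between -0.84 and 0.75, while AQP3 (-2.88), KLF9 (-2.44) and FOS (-4.08) extend far below them.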

How the data were processed

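RNA was measured in 3 si-YTHDF2 and 3 NC libraries. Per the labels' protocols, Trizol-extracted total RNA was depleted of ribosomal RNA before library preparation with a GenSeq low-input kit. Per the file headers, the authors deposited a raw count per gene and library. The submitters' processing notes name hg38, and the sources used here give no aligner, counting program or strand setting. Input, a word in the names of the count columns, is unexplained in the labels, and 6 columns normalized by the authors were not used. A further 2 lines with no gene identifier were left out, and 12 symbols with a second identifier were kept as separate genes.

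Groups were compared with the quasi-likelihood test of edgeR 4.0.16 in R 4.3.3 with TMM scaling, applied to the counts the authors deposited, after filterByExpr at its defaults and without covariates. Calls needed an adjusted p (Benjamini-Hochberg, over 12264 genes) under 0.05. The fit was tested on simulated data. CPM are counts scaled to a common library size with TMM factors, and intervals are at 95%. Lengths, GC content and overlaps came from GENCODE 29, matched by identifier for 16546 genes, and promoter windows from RefSeq. Totals of 19803707 to 22698069 counts limit the precision of low genes most.

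The alternatives were RLE or upper-quartile factors, library totals alone, limma-voom (limma 3.58.1), DESeq2 1.42.0, no filter, a mean count of at least 50, an adjusted p under 0.01, the replicate number as a block, each library left out in turn, and 2 added after seeing the data: correction of each library for a trend with transcript length and GC content, and RefSeq-matched transcript lengths. The 10 genes and the lists were chosen with earlier results of these data known. Named in each further list were the 4 genes with the smallest p and those below the filter; some genes that count in the lists are not reported here by name. Other names are marked as chosen after their values were seen, as are THRA, KRT5, HBB and the other marker genes named.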

Additional observations from a re-analysis of the deposited data

How the results depend on the processing

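Of the named genes, 53 were recomputed under 15 alternatives, and 765 of the 795 values kept the direction and side of the threshold. Of the other 30, 3 changed direction, all for BHLHE41, a gene that was never called: it ran from -0.025 to 0.060 with a library left out, negative without si-YTHDF2 replicate 2 (-0.012) or NC replicate 2, and was -0.051 after correction for length and GC content. CRY1, ARNTL, PER2, NR1D1 and DBP were called under all 15. Of the 10 clock genes, 2 to 3 were higher and 3 to 5 lower with a library left out, and 3 were higher and 3 lower with library totals. Over all genes, 2816 to 3422 were higher and 2680 to 3335 lower with a library left out. Library totals gave 3860 higher and 2433 lower, 61.3% higher among the calls instead of 50.9%, and moved the median log2 fold change from 0.01 to 0.08. In the list of kinases, turnover and cofactors, 9 were lower, against 4 with library totals, 4 at an adjusted p under 0.01, and 4 to 9 with a library left out. Whether the numbers of the replicates pair the libraries is not settled. Deviations from the group means correlated only weakly between libraries of the same number, at 0.055, 0.052 and 0.035. Each library still correlated best with its own number, and correlations between different numbers ran from -0.049 to 0.0069. With the replicate number as a block 3265 genes were higher and 3173 lower, and the clock genes stayed at 3 and 4. Of the 53 genes recomputed, the block moved only ARNTL2 over the threshold. Levels per kilobase depended on the length used: with the union of exons, PER1 was 3.996 CPM per kb over all libraries instead of 5.94. Counting error limits RORB, HLF, CIART and PRKAA2, which had at most 8 counts in a library.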
